A study of Mus musculus with 194 samples.

Results

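The potassium channel genes of the mouse brain were taken as the genes of the count table whose symbol begins with Kcn and a further letter and whose mean level reached 5 CPM (a gene's read count over the total of its library, scaled alike in every library) in at least 1 of 5 brain structures. Of 94 such symbols among the 19363 genes of the table, 64 reached this level and are described here. The last gene inside was Kcnh5 at 5.10 CPM in DS and the first outside was Kcnk4 at 3.89 CPM in LCtx. By class, the 64 genes were 14 of 17 pore-forming A-type and delayed rectifier Kv subunits, 8 of 10 silent Kv subunits, 10 of 13 KCNQ and EAG family subunits, 7 of 8 calcium- and sodium-activated channels, 10 of 15 inward rectifiers, 6 of 14 two-pore domain channels and 9 of 17 auxiliary subunits. Kcnj6, which encodes a subunit of G protein-gated inward rectifiers, Kcna3 and Kcnk9 were among the 30 symbols that did not, with highest structure means of 1.40, 0.120 and 0.0802 CPM.

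Potassium channels let potassium leave the cell and so return the membrane to rest after an action potential, set the resting potential and space out firing. Kv channels open with depolarization, calcium- and sodium-activated channels open as those ions enter, inward rectifiers and two-pore channels carry current near rest, and auxiliary subunits change the gating or the delivery of the pores they bind. Striatal projection neurons are known for strong inward rectification and A-type currents that hold them at a negative potential between bouts of input, and fast-spiking interneurons for channels of the Kcnc genes, which close fast enough for high firing rates.

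Male C57BL/6OLAHSD mice, 6 to 7 weeks old on arrival, were given cocaine at 20 mg/kg into the peritoneum once (acute), daily for 5 days (repeated, written as chronic in the sample labels) or once again at the end of 21 days without drug that followed repeated cocaine (challenge). Amygdala (Amy), dorsal striatum (DS), lateral hypothalamus (LH), limbic cortex (LCtx) and nucleus accumbens (NAc) were cut from 400 micrometre slices at 0, 1, 2 or 4 hr. The 0 hr mice were naive in the acute arm, had received their 4 doses up to the day before in the repeated arm and were abstinent in the challenge arm. They came straight from the home cage, and no sampled group was injected with saline that day. Changes from 0 hr therefore cannot separate cocaine from the injection and its handling. The 3′ ends of transcripts were sequenced from 28 LCtx, 36 NAc, 48 DS, 31 Amy and 23 LH samples of 48 mice, each sample from 1 mouse, with 3 to 5 DS mice per treatment and time and 1 to 4 elsewhere. Each sample is a mixture of cell types, in which fewer cells of a type and less RNA per cell cannot be told apart, and p-values measure the spread between these mice. Of the 48 mice, 38 gave samples of more than 1 structure, and the comparisons of structures treated these as separate; a fit with the animal as a term is given beside them.

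Libraries held 1193306 to 10367769 counted reads (median 3296648), and 28 of the 166 samples were sequenced in 2 runs, of which 1 library per mouse was used. Marker genes followed the structure labels: 10 genes of striatal projection neurons summed to 12542 to 16512 CPM over the DS mice against 326 to 956 over the LCtx mice, and 6 hypothalamic genes to 9317 to 16119 CPM in LH against at most 1635 in any Amy sample. No DS library shared a sequencing run with another structure, so that the DS and its runs cannot be told apart in the comparison of structures. Treatments were in separate mouse cohorts, and in DS they met in 1 run, of 24 libraries with 1269391 to 2704694 reads. Treatment and cohort thus cannot be told apart in any comparison of treatments, even within 1 run. Challenge mice were also older when taken, after the 21 days without drug. In 2 of the 4 naive DS mice (replicates 1 and 2) the libraries stood apart, with a median correlation with the other DS libraries of 0.944 and 0.949 across genes (log2 CPM) against 0.960 to 0.969 for the other 14 acute mice. The genes called in the DS time courses are given with and without them. The comparison of structures was not repeated without these 2 alone.

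Most potassium channel genes differed in level between structures. The highest structure mean was a median of 3.75 times the lowest over the 64 genes, against 1.59 times over the 11945 genes of the table that passed the same 5 CPM rule. Of the 64, 51 exceeded 2-fold and 25 exceeded 5-fold, as did 3792 and 1124 of the 11945. In a fit of all 5 structures (edgeR's quasi-likelihood test, 12925 genes), 52 of the 64 genes passed an adjusted p of 0.05 and a fold of 2 between at least 1 pair of structures, against 33% of all genes tested and 31.6% of tested genes at 5 CPM or more. The LCtx was the highest structure for 31.2% of the channel genes, the DS for 31.2%, the LH for 23.4%, the Amy for 7.81% and the NAc for 6.25%, where over all genes at this level the shares were 17.3%, 27.1%, 31.3%, 9.57% and 14.7%.

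Between pairs of structures, the DS and the LH stood furthest apart, with 39 of 64 genes called (22 higher and 17 lower in DS) against 21.3% of all genes (10.5% higher, 10.7% lower). The LCtx and the Amy were closest, with 4 called (Kcnmb4, Kcnj11 and Kcnj12 higher in LCtx, Kcnj5 higher in Amy) against 6.34% of all genes. The NAc and DS, both striatal, differed in 10 (6.43% of all genes), 8 of them higher in NAc (3.92% of all genes). The counts were 25 for LCtx and NAc (11.4%), 34 for LCtx and DS (17.2%), 26 for LCtx and LH (15.8%), 18 for NAc and Amy (8.36%), 29 for NAc and LH (15.1%), 30 for DS and Amy (16.1%) and 15 for Amy and LH (9.01%). In each pair but LCtx and Amy, the share of channel genes called was over 2 times the share of all genes. With the animal as a term, 50 of the 64 were called between at least 1 pair, from 5 for LCtx and Amy to 37 for DS and LH. The 24 DS mice of the 3-treatment run also had a library from another run, which was used here; with the library of the 3-treatment run in its place the total was 51, and the count for NAc and DS 15.

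**Figure D1:**
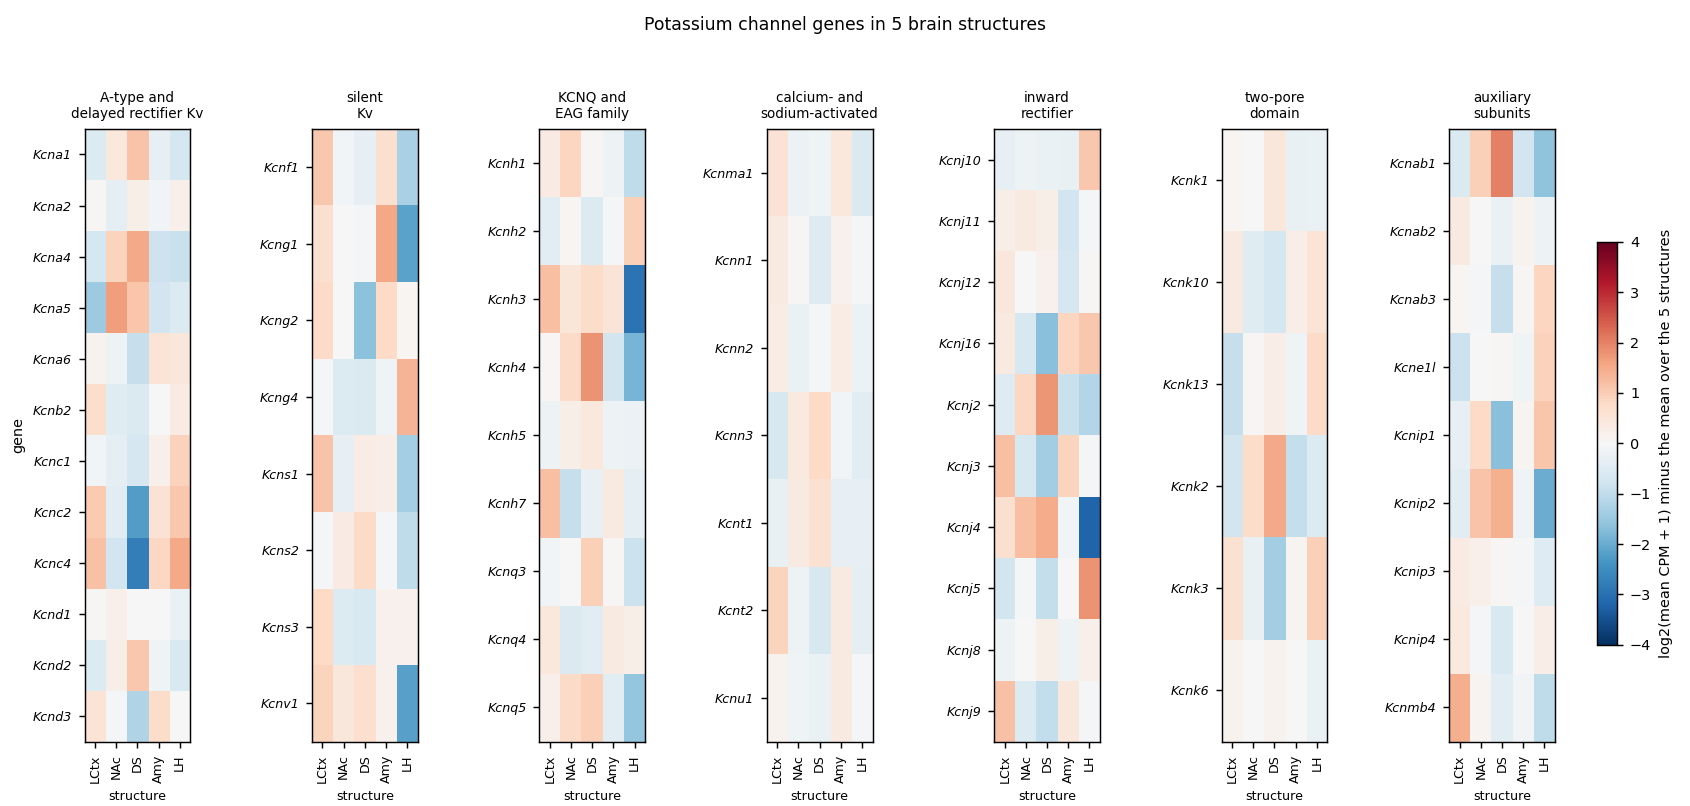
Mean level of 61 of the 64 potassium channel genes in each structure (columns) by class (panels), as log2(mean CPM + 1) minus the gene's mean over the 5 structures, so that red is above and blue below that gene's own mean. The DS column holds the deepest blue of the Kv class (Kcnc4, Kcnc2) and the LH column that of Kcnh3, Kcnj4 and most silent subunits, and the strongest red is Kcnab1 in DS.

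A set of 6 genes was higher in both striatal structures than in each of the LCtx, Amy and LH (1.69% of all genes were), namely the pore-forming subunits Kcna4, Kcna5, Kcnj2 and Kcnk2 and the auxiliary subunits Kcnab1 and Kcnip2. Kcnab1, a cytoplasmic beta subunit that speeds the inactivation of Kv pores, spanned 461 to 710.2 CPM (median 576) over the 48 DS mice, 228 to 316 CPM (median 269) over the 36 NAc mice, 69.7 to 116 CPM (median 92.4) in LCtx, 57.4 to 109 CPM (median 80.8) in Amy and 33.2 to 59.8 CPM (median 44.4) in LH. No DS or NAc mouse overlapped with a mouse of the other 3 structures, and the DS and NAc did not overlap with each other. Its log2 fold change was -1.11 ± 0.031 (adjusted p = 4.30e-67) for NAc minus DS and 3.72 ± 0.048 (adjusted p = 2.03e-109) for DS minus LH. Kcnip2, a calcium-binding partner of A-type Kcnd pores, spanned 332 to 486 CPM (median 405) in DS, 239 to 451 CPM (median 346) in NAc, 109 to 181 CPM (median 137) in Amy, 77.9 to 145 CPM (median 115) in LCtx and 24.8 to 47.1 CPM (median 37.4) in LH. It was thus high in both striatal structures, whose mice overlapped, and LH minus every other structure was negative beyond 2-fold.

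Kcnj2, a strong inward rectifier of the resting membrane, was at 70.9 ± 16.6 CPM (mean ± SD, n = 48) in DS and 36.2 ± 7.35 (n = 36) in NAc, against 13.7 ± 3.85 (n = 28) in LCtx, 10.3 ± 2.37 (n = 31) in Amy and 8.30 ± 2.18 (n = 23) in LH. Kcnk2, a two-pore channel that responds to stretch and lipids, was at 173 ± 14.8 CPM in DS and 99.6 ± 15.5 in NAc and between 30.1 and 40.1 CPM in the other 3. Both were lower in NAc than in DS, by -0.97 ± 0.051 and -0.85 ± 0.035 on the log2 scale, short of the 2-fold limit, and by -1.01 and -1.05 with the DS libraries of the 3-treatment run, past it. Kcna4, an A-type pore, had the same order, at 78.5 ± 8.13 CPM in DS, 50.7 ± 5.57 in NAc and 14.1 to 16.1 elsewhere. Kcna5, a delayed rectifier of the same family, was the only one of the 6 with its higher mean in NAc, at 70.8 ± 10.9 CPM against 48.1 ± 10.5 in DS.

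**Figure D2:**
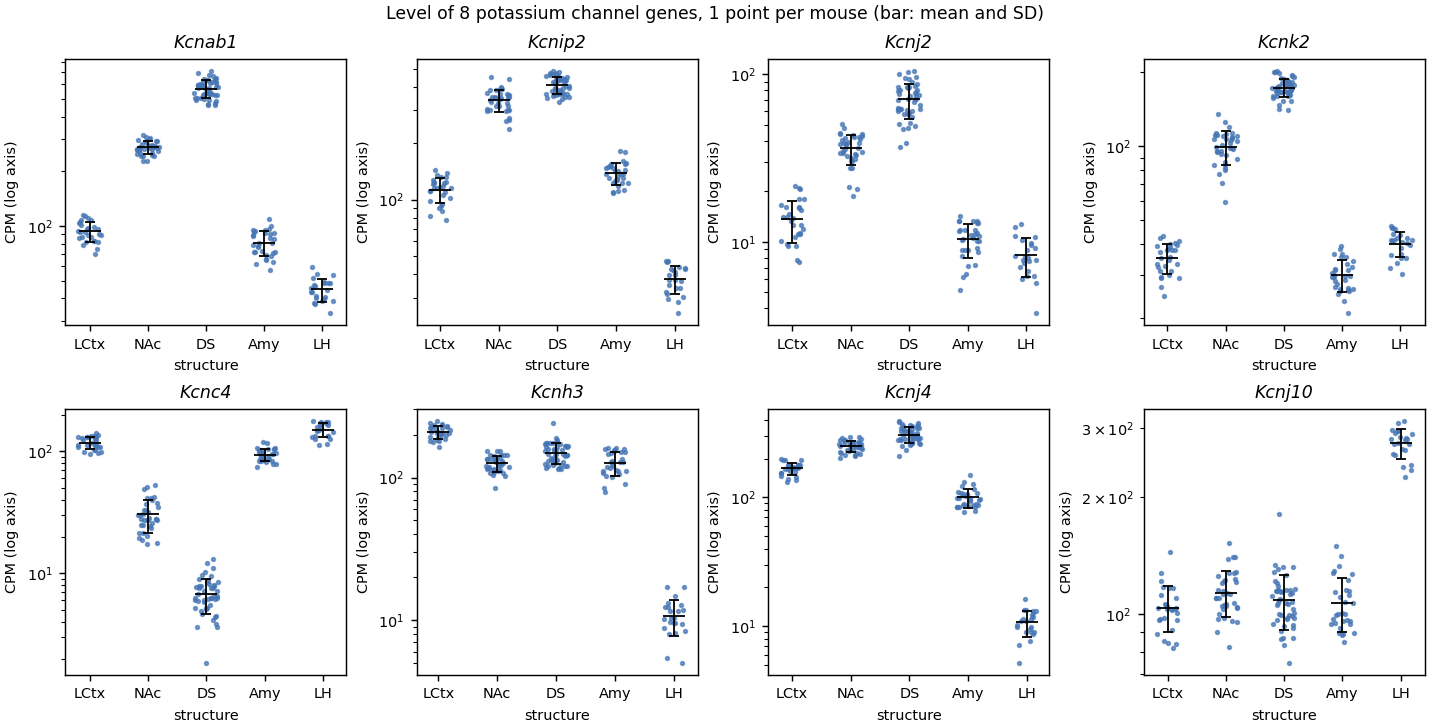
Level in CPM (log axis) of 8 potassium channel genes in each mouse (points) by structure, with the mean and SD (bars). Kcnab1, Kcnip2, Kcnj2 and Kcnk2 are high in DS and NAc, Kcnc4 is low there, Kcnh3 and Kcnj4 are low in LH, and Kcnj10 is high in LH.

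Among the pore-forming Kv genes, the fast channel genes Kcnc1, Kcnc2 and Kcnc4 and the A-type Kcnd3 were low in DS, and Kcnd2, Kcna1 and Kcna4 high. Kcnc4 spanned 1.86 to 13.04 CPM (median 6.40) in DS, 17.4 to 52.7 CPM (median 27.7) in NAc, 74.6 to 120.0 CPM (median 94.96) in Amy, 95.7 to 139.9 CPM (median 116) in LCtx and 113 to 178 CPM (median 150.4) in LH. The DS mice lay below every mouse of the other structures, and Kcnc4 and the inward rectifier Kcnj16 were the 2 genes lower in both striatal structures than in each of the other 3 (1.19% of all genes). The difference between DS and LH was -4.40 ± 0.064 on the log2 scale. Kcnc2 was at 6.85 ± 2.13 CPM in DS, 26.9 ± 6.40 in NAc, 54.2 ± 7.11 in Amy and close to equal in LCtx (75.3 ± 14.3) and LH (76.9 ± 9.25), which differed by 0.015 ± 0.062 (adjusted p = 0.837). Kcnc1 was highest in LH, at 178 CPM, and lowest in DS, at 58.2. Kcna1, at 30.6 ± 13.2 CPM in DS and 17.9 ± 5.68 in NAc, read higher in the 3-treatment run in all 24 DS mice with 2 libraries, by a mean of 1.09 on the log2 scale, and NAc minus DS was -0.69 with the libraries used here and -1.33 ± 0.12 with those of that run.

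The genes that were lower in DS than in each other structure numbered 7 (Kcnc2, Kcnc4, Kcnd3, Kcng2, Kcnip1, Kcnj16 and Kcnk3, where 2.47% of all genes were; with the DS libraries of the 3-treatment run Kcnj16 missed the limit against NAc, at 0.99) and those higher there 2 (Kcnab1 and Kcnh4, where 1.48% were). The A-type pores Kcnd2 and Kcnd3 had opposite orders, with Kcnd2 at 193 ± 18.3 CPM in DS and 80.7 ± 8.54 in Amy, and Kcnd3 at 30.8 ± 6.16 and 121 ± 11.6. Their partners Kcnip2 and Kcnip1 did so too. Kcnip1 was at 15.1 ± 3.34 CPM in DS against 88.5 ± 10.3 in NAc, a log2 difference of 2.51 ± 0.048 for NAc minus DS, which was the largest of the 64 genes between these 2 structures apart from Kcnj5, which was near 0 in both. Kcna2, an axonal delayed rectifier and the gene of this class with the most counts, had means from 109.7 CPM in NAc to 164 in DS, and no pair of structures passed the 2-fold limit. Its DS level depended on the library: in 23 of the 24 DS mice with 2 libraries that of the 3-treatment run read higher, by a mean of 0.60 over the 24 on the log2 scale, and with it NAc minus DS was -0.91 ± 0.060 in place of -0.60, still short of the limit.

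The silent Kv subunits, which make no channel alone and change the Kv pores they join, were the class whose summed level had the largest ratio between the highest and the lowest structure. Summed over its 8 genes, the class was at 311 ± 24.1 CPM in LCtx, 274 ± 30.1 in Amy, 167 ± 21.2 in NAc, 168 ± 13.7 in DS and 63.9 ± 6.25 in LH, where the highest LH mouse (74.5) was below the lowest of any other structure (135). For LCtx minus LH, 5 of the 8 were higher and Kcng4 lower, where 8.17% of all genes were higher and 7.64% lower. Kcng4 reached 5 CPM in LH alone, so that the choice of members fixed its direction. Kcnf1, the gene of the class with the most counts, was at 144 ± 17.9 CPM in LCtx and 26.8 ± 4.34 in LH. Kcng1 spanned 52.7 to 121 CPM (median 93.5) in Amy, 21.8 to 76.9 CPM (median 47.8) in LCtx, 19.4 to 44.1 CPM (median 30.4) in NAc, 17.6 to 43.6 CPM (median 29.7) in DS and 3.37 to 10.7 CPM (median 5.78) in LH, so that the LH mice lay below all others. Kcnv1 was at 42.0 to 70.1 CPM in 4 structures and at 7.39 ± 2.21 in LH. Kcng4 was at 7.52 ± 1.70 CPM in LH and at most 2.22 elsewhere. Kcnb2, which encodes a pore of the Kv family that these subunits join, was at 22.7 ± 3.78 CPM in LH and 11.8 in DS.

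Genes of the KCNQ family, whose channels carry the M-current that muscarinic receptors close, and of the EAG family were also low in LH, with a class sum of 355 ± 27.5 CPM there, 808 ± 65.6 in DS and 723 ± 66.8 in LCtx. Kcnh3, an EAG-family pore of the forebrain, spanned 163 to 250.1 CPM (median 207) in LCtx, 114 to 239 CPM (median 146) in DS, 79.2 to 161 CPM (median 128) in Amy, 84.2 to 154 CPM (median 126) in NAc and 5.04 to 17.1 CPM (median 10.3) in LH. Every LH mouse was below every other mouse, and Amy minus LH was 3.67 ± 0.066 (adjusted p = 3.61e-90). Its relative Kcnh4 was the only EAG gene higher in DS than in each other structure, at 35.1 ± 9.02 CPM against 16.9 ± 4.84 in NAc and 1.87 ± 0.914 in LH. Kcnh2 was highest in LH, at 83.3 ± 10.7 CPM there and 28.8 to 44.7 in the other 4. Kcnq3, of the M-current, was at 204 ± 33.6 CPM in DS and at most 109 in any other structure, and Kcnq5 at 90.7 ± 16.8 in DS and 15.2 ± 2.48 in LH.

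Calcium- and sodium-activated channels summed to 228 ± 15.5 CPM in LH and to means between 320.4 and 354 in the other 4 structures, within which single genes ran in opposite directions. Kcnma1, the pore of large-conductance calcium-activated channels, was at 165 ± 26.5 CPM in LCtx and 73.6 ± 7.77 in LH, and its brain beta subunit Kcnmb4 at 256 ± 37.4 and 45.3 ± 7.03. Kcnmb4 was the only one of the 64 genes higher in LCtx than in each other structure (1.12% of all genes). Kcnn3, a small-conductance calcium-activated channel of the afterhyperpolarization, ran the other way, at 55.1 ± 17.2 CPM in DS, 41.3 ± 6.96 in NAc and 19.7 ± 4.23 in LCtx, with -1.52 ± 0.060 for LCtx minus DS on the log2 scale. Kcnt1 and Kcnt2, the sodium-activated pair, also had opposite orders, Kcnt1 with 151 CPM in DS and 81.0 in LCtx, and Kcnt2 with 6.22 and 19.9.

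The inward rectifiers had different orders of structures. Kcnj4, a strong rectifier like Kcnj2, spanned 210.1 to 393 CPM (median 304) in DS, 203 to 294 CPM (median 250.5) in NAc, 132 to 198 CPM (median 169.8) in LCtx, 77.5 to 148 CPM (median 96.9) in Amy and 5.22 to 16.4 CPM (median 11.1) in LH. The LH mice were far below all others, with Amy minus LH at 3.27 ± 0.064 on the log2 scale. The G protein-gated subunits Kcnj3 and Kcnj9, which transmit inhibition by receptors such as those for GABA and opioids, were highest in LCtx (106 ± 14.5 and 116 ± 15.8 CPM) and lowest in DS (16.8 ± 3.35 and 25.4 ± 5.26). Another subunit of this kind, Kcnj5, was at 6.82 ± 1.80 CPM in LH, where the lowest mouse was at 3.33, and had means of 0.170 to 1.22 CPM in the other structures, where mice were at 0 in each and the highest was at 3.33. Kcnj10, the main inward rectifier of astrocytes and oligodendrocytes, was at 274 ± 23.7 CPM in LH and 104 to 113 in the other 4, where no pair passed the test with a fold over 2. It was higher in LH than in each other structure, as were 1.8% of all genes. Kcng4 and Kcnj5 were too, but they reached 5 CPM in LH alone, so that the choice of members fixed their direction and nothing is read from their number. The sum of 6 oligodendrocyte marker genes was also highest in LH, at 12407 to 19881 CPM against 1287 to 3965 in LCtx, and that of 6 astrocyte genes lowest there (1760.0 to 2278 CPM). The part of either cell type in the level of Kcnj10 was not tested.

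Of the two-pore channels, which carry the leak current, Kcnk1 had the most counts, with means from 117 CPM in Amy to 201 in DS. The acid-sensitive Kcnk3 was at 57.4 ± 10.5 CPM in LH, 44.5 ± 7.28 in LCtx and 10.6 ± 2.99 in DS, the reverse of Kcnk2. Kcnk13 was at 16.9 ± 3.14 in LH and 4.51 ± 1.93 in LCtx. Summed over its 6 genes, the class was highest in DS (404 ± 33.6 CPM), where every mouse was above every mouse of the other structures, and lowest in Amy (197 ± 13.8).

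In all, 10 genes were lower in LH than in each other structure (Kcnf1, Kcng1, Kcns1, Kcns2, Kcnv1, Kcnh3, Kcnh4, Kcnq5, Kcnip2 and Kcnj4), where 2.45% of all genes were. Of these, 5 were silent Kv subunits. With the DS libraries of the 3-treatment run Kcnf1 missed the limit for DS minus LH, at 0.98. Summed over all 64 genes, the LH had 3051 ± 118 CPM, the Amy 3606 ± 121, the NAc 4082 ± 201, the LCtx 4270.0 ± 264 and the DS 4681 ± 271. The highest LH mouse lay below the lowest mouse of every other structure.

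The LCtx, NAc, Amy and LH of challenge mice met in the same 2 sequencing runs and were compared within them, with run and time as terms (12657 genes). There, 45 of 64 genes were called between at least 1 pair (25.9% of all genes). By pair the counts were 23 for LCtx and NAc (10.2%), 5 for LCtx and Amy (6.03%), 28 for LCtx and LH (16.7%), 17 for NAc and Amy (8.29%), 30 for NAc and LH (16%) and 19 for Amy and LH (9.84%). The same 10 genes were lower in LH than in the other 3 (3.25% of all genes). Kcnj10 was again higher there (2.81% of all genes were), beside Kcng4 and Kcnj5, whose direction the 5 CPM rule fixed. The 6 genes that were high in both striatal structures were the 6 that were higher in NAc than in LCtx, Amy and LH (1.73%). For Kcnab1 the log2 differences were -1.44 ± 0.052 (LCtx minus NAc) and 2.58 ± 0.069 (NAc minus LH), and for Kcnh3 Amy minus LH was 3.77 ± 0.10. Levels of Kcnh3, Kcnh7, Kcnn2, Kcnab3 and Kcnmb4 are less certain, because another gene of the opposite strand covers part of the last 1000 bases of each in the annotation and the strand used in counting is not given in the sources used here.

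Of 15 proteins outside the Kcn symbols that assemble with or anchor these channels (such as Dpp6 and Dpp10 at A-type channels, Abcc8 and Abcc9 at ATP-sensitive ones and Cntnap2 at the axonal Kcna pores), 12 could be tested between structures. At most 3 of the 12 were called between any pair (DS and LH, all lower in DS, where 10.7% of all genes were), with a median log2 difference of -0.33 for that pair, and at most 2 between any other.

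Over the 4 hr after cocaine, few potassium channel genes changed. For each structure and treatment, the 1, 2 and 4 hr groups were compared with 0 hr together (F test, adjusted p under 0.05 and a fold over 1.2 at the time of largest change). In the DS, 1 of 62 genes tested was called after acute cocaine (Kcnn3, where 2.62% of all genes were called), 1 after repeated cocaine (Kcnj2, 0.48%) and none after challenge (0.673%). Unadjusted p-values under 0.05 were found for 11, 6 and 5 of the 62 (17.7%, 9.68% and 8.06%, against 13.9%, 6.81% and 6.49% of all genes). No channel gene was called in NAc, LCtx, Amy or LH after any treatment. The percentages of all genes called there were 0.185%, 0.0463% and 0.0925% in NAc, 0.3%, 0.0462% and 0.0924% in LCtx, 0.0853%, 0.0233% and 0.109% in Amy and 0.0529%, 0.0302% and 0% in LH after acute, repeated and challenge cocaine. In these 12 courses 2 to 11 channel genes had an unadjusted p under 0.05. In 11 of the courses these were 3.17% to 11.3% of the channel genes, where the shares of all genes ran from 2.91% to 11.9%. The most were 11 of 63 in LCtx after acute cocaine (17.5%, against 5.23% of all genes), with a smallest adjusted p of 0.141. DESeq2 called no channel gene in any structure. Leaving out replicate 1 of every group gave called genes in LCtx, where some groups then held a single mouse, and nothing is read from their number.

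Kcnn3, the small-conductance calcium-activated channel, was at 27.0, 31.9, 34.2 and 43.0 CPM in the 4 naive DS mice, at 32.2, 33.4, 34.6 and 35.7 at 1 hr, at 42.2, 44.3, 57.6 and 59.8 at 2 hr and at 35.2, 38.2, 40.7 and 43.0 at 4 hr. The 2 hr mice were the highest, and only 1 of them lay within the range of the naive mice. The log2 change from 0 hr was 0.030 ± 0.17 at 1 hr, 0.58 ± 0.16 at 2 hr and 0.20 ± 0.16 at 4 hr (F test, adjusted p = 0.0363). After repeated cocaine the change at 2 hr was 0.31 ± 0.14 (adjusted p over the 3 times = 0.173) and after challenge 0.38 ± 0.15 (0.178). The challenge mice were at 55.7, 65.7 and 75.1 CPM at 0 hr and 77.5, 77.6, 79.8 and 102 at 2 hr, and neither course passed the adjusted threshold. The acute 2 hr change was 0.71 (adjusted p = 0.0239) without naive replicate 1, 0.57 (0.0525) without naive replicate 2 and 0.57 (0.187) in DESeq2, and adjusted p ranged from 0.0148 to 0.399 as each replicate number was left out (no call without number 2, 3 or 4).

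Kcnj2, the strong inward rectifier, was at 58.1, 71.3, 84.5 and 85.4 CPM in the 4 DS mice before the last dose of repeated cocaine, 83.5, 94.0, 96.4 and 103 at 1 hr, 61.5, 61.7, 69.7, 73.9 and 75.1 at 2 hr and 60.1, 60.2, 61.8 and 74.3 at 4 hr. It was highest at 1 hr, where 3 of 4 mice exceeded every 0 hr mouse. The log2 change was 0.33 ± 0.13 at 1 hr, -0.12 ± 0.12 at 2 hr and -0.23 ± 0.13 at 4 hr (F test, adjusted p = 0.046), and the single contrast at 1 hr did not pass alone (adjusted p = 0.664). After acute cocaine it was at 38.6, 49.3, 51.5 and 58.5 CPM at 0 hr and 62.7, 65.6, 68.7 and 71.1 at 1 hr, a change of 0.46 ± 0.14 that missed the threshold (F test, adjusted p = 0.0644). After challenge the change at 1 hr was 0.0043 ± 0.13. The call after repeated cocaine was lost without replicate number 1 (0.28, adjusted p = 0.665), 3 (0.40, 0.0605), 4 (0.23, 0.343) or 5 (0.33, 0.0569), and in DESeq2 (0.34, adjusted p = 1.00). The acute change was 0.35 without naive replicate 1 and 0.46 without naive replicate 2. Differences between treatments in the time course were tested directly as an interaction, for which no channel gene passed (0.031% of all genes did, in edgeR, and 4 of 62 channel genes, or 6.45%, had an unadjusted p under 0.05, against 5.29% of all genes), so that neither gene was shown to respond differently by treatment.

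**Figure D3:**
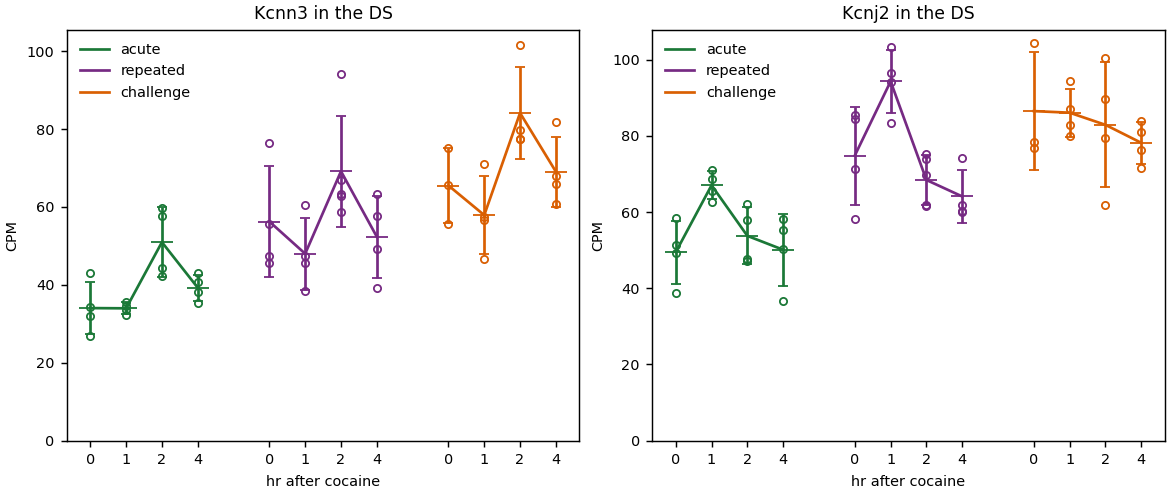
Level in CPM of Kcnn3 (left) and Kcnj2 (right) in each DS mouse (points) at 0, 1, 2 and 4 hr after acute, repeated or challenge cocaine, with the mean and SD (bars) and lines through the means. Kcnn3 is highest at 2 hr in each treatment and Kcnj2 at 1 hr after acute and repeated cocaine, while the acute mice sit lower throughout; they were sequenced in another run than the rest.

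For these 2 genes, the sequence before the annotated start is shown, since regulatory letters of the early transcriptional response to stimulants are often sought there. The 250 bases before the RefSeq start (GRCm38.p6, plus strand of each gene, 5′ to 3′) are given in lower case, with GC boxes (GGGCGG on either strand) in capitals. The Kcnn3 window lies at chr3:89519914-89520163 and the Kcnj2 window at chr11:111065914-111066163.
Kcnn3: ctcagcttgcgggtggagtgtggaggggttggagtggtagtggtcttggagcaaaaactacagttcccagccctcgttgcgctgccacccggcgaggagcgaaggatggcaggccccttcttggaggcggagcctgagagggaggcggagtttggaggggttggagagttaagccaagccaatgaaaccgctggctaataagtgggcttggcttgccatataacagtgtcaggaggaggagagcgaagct
Kcnj2: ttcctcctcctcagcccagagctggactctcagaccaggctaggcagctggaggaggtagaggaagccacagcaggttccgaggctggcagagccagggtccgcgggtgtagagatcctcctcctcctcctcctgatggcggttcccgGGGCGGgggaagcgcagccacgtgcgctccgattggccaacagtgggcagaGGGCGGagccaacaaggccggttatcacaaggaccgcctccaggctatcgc
Kcnj2 held 2 GC boxes, at 102 and 51 bases before the start, and Kcnn3 none. Neither held the cyclic AMP response element TGACGTCA or its first bases TGACG, the AP-1 site TGAGTCA, a serum response element, the EGR site GCGTGGGCG or the letters TATAAA on either strand, where TGACG is part of TGACGTCA. Of 32851 windows of this length, 1.55% held TGACGTCA, 17.8% TGACG, 4.46% TGAGTCA, 0.0609% the serum response element, 0.536% GCGTGGGCG, 12.4% TATAAA and 32.7% the GC box. Of 66 windows of the 44 channel genes that were matched, 29 held a GC box, 9 TGACG, 2 TGAGTCA, 2 TATAAA and none the other 3.

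Treatments were compared in DS within the 1 run that held all 3, with 8 mice each (2 per time point) and time as a term. The 2 mice of 0 hr, which had no dose that day, are among the 8. In this and the later comparisons of treatments, being higher or lower after a treatment therefore refers to the whole arm. Of 56 channel genes tested among 11210 genes, 7 differed between repeated and acute cocaine (14.3% of all genes), 10 between challenge and acute (17.8%) and 6 between challenge and repeated (4.05%), all 6 lower after challenge (1.98% of all genes were lower). The median log2 difference over the channel genes was -0.050, -0.15 and -0.075, against 0.0069, 0.0064 and 0.00063 over all genes. For repeated minus acute, 3 were higher and 4 lower (8.01% and 6.25% of all genes), and for challenge minus acute 2 were higher and 8 lower (9.77% and 8.06%).

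Each of these 24 mice had a second DS library from another run, and the acute mice read differently in the 2 runs. Between its 2 libraries (the 3-treatment run minus the other), a channel gene moved by a median of 0.363 on the log2 scale in acute mice, 0.147 in repeated and 0.202 in challenge mice, and 31, 8 and 13 of 56 genes moved the same way in all 8 mice. In the acute mice the largest mean shifts were 2.08 for Kcna1 and 1.35 for Kcnh7, and among genes described below the mean shift was 0.93 for Kcna2, -0.84 for Kcna6, -0.56 for Kcnip3, 0.51 for Kcnd2 and 0.46 for Kcnn3. Contrasts are therefore given below from both libraries of the same mice. In the other libraries, run and treatment cannot be told apart for acute mice, and 46.1% and 46.2% of all genes were called against them.

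Kcnab1 was lower and Kcnn3 higher in the repeated and challenge arms than in the acute arm in both sets of libraries. Kcnab1 spanned 568 to 618 (median 613) CPM in the 8 acute mice, 426 to 531 (median 472) in the repeated and 422 to 544 (median 472) in the challenge mice, without overlap with the acute mice (4.38% and 5.21% of all genes did not overlap in these comparisons). Repeated minus acute was -0.33 ± 0.048 (adjusted p = 2.53e-07) and challenge minus acute -0.31 ± 0.048 (adjusted p = 4.91e-07), and the other libraries gave -0.30 ± 0.045 and -0.33 ± 0.045. At 0 hr alone (2 mice per treatment) the differences were -0.43 ± 0.094 for repeated and -0.39 ± 0.10 for challenge, where 2.12% and 3.86% of all genes were called at 0 hr, and -0.41 and -0.37 in the other libraries. Kcnn3 spanned 44.8 to 71.0 (median 50.3) CPM in acute, 45.0 to 79.1 (median 69.8) in repeated and 58.4 to 116 (median 80.1) in challenge mice, which overlapped. Repeated minus acute was 0.36 ± 0.12 (adjusted p = 0.0257) and challenge minus acute 0.66 ± 0.12 (adjusted p = 1.63e-05), against 0.67 ± 0.094 and 0.79 ± 0.092 in the other libraries. At 0 hr, challenge minus acute was 0.91 ± 0.23, and 1.14 in the other libraries. For repeated minus acute, Kcnn3 was not called once replicate number 1, 2, 3 or 4 was left out (0.33, 0.35, 0.28 and 0.34), while Kcnab1 was called each time. At 0 hr, Kcnn3 was not called between challenge and acute without replicate number 1, 2, 3 or 4, and Kcnab1 not for repeated minus acute without number 3 (-0.46) or 4 (-0.42), nor for challenge minus acute without number 1 (-0.31) or 4 (-0.33).

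The other 5 genes called between repeated and acute cocaine depended on the library. Kcna2 was at 318 ± 26.1 CPM (n = 8) in acute and 242 ± 25.8 (n = 8) in repeated mice of the 1 run, without overlap, a difference of -0.38 ± 0.063, and 0.17 ± 0.056 in the other libraries. Kcna6 went from 25.8 ± 4.17 to 35.4 ± 8.55 (0.46 ± 0.14) and was -0.60 ± 0.088 in the other libraries, a call in the opposite direction. Kcnip3, a calcium sensor that binds Kcnd pores and DNA, gave 0.48 ± 0.081 and -0.22 ± 0.064, and Kcnd2 -0.31 ± 0.061 and 0.036 ± 0.047. Kcnj10 gave -0.29 ± 0.086 and -0.032 ± 0.070. No direction between repeated and acute cocaine can be drawn for Kcna2, Kcna6, Kcnip3 and Kcnd2, whose 2 values have opposite signs. In the 1 run, 1 of 6 oligodendrocyte markers was lower after repeated cocaine, with sums of 11104 to 12659 CPM in acute and 8836 to 10884 in repeated mice, without overlap. Of 6 astrocyte markers 1 was higher and 1 lower, with sums of 3244 to 3450.3 and 2856 to 3411 CPM, which overlapped. The part of either cell type in the value of Kcnj10 was not tested.

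Between challenge and acute cocaine, 8 of the 10 called genes kept their sign in the other libraries and 5 were called there too (Kcna2, Kcnab1, Kcnj10, Kcnj11 and Kcnn3), while Kcna6 (0.66 ± 0.15 and -0.24 ± 0.083) and Kcnq5 (-0.35 ± 0.094 and 0.30 ± 0.059) changed sign. Kcna2 spanned 279 to 363 (median 322) CPM in acute and 187 to 235 (median 208) in challenge mice (-0.59 ± 0.065, and -0.34 ± 0.056 in the other libraries). Kcnj10 fell from 113 to 141 (median 116) to 68.1 to 90.8 (median 75.5) CPM (-0.65 ± 0.090 and -0.29 ± 0.069), and Kcnj11, the pore of ATP-sensitive channels, from 40.7 to 48.3 (median 46.97) to 19.7 to 38.6 (median 33.5) (-0.46 ± 0.13 and -0.69 ± 0.074). In each of the 3, the groups did not overlap in the 1 run. Nor did those of Kcnab1, Kcna6 and Kcnd2, so that 6 of 56 channel genes did not overlap, against 5.21% of all genes. Of these, Kcna6 changed sign in the other libraries and Kcnd2 gave -0.014 there. Kcnj8, Kcnd2 and Kcnq3 were also lower in the 1 run (-1.09 ± 0.33, -0.35 ± 0.062 and -0.33 ± 0.069), with -0.33 ± 0.18, -0.014 ± 0.047 and -0.039 ± 0.049 in the other libraries. Markers of other cell types moved with this comparison. Of oligodendrocyte markers, 5 of 6 were lower after challenge (median log2 difference -0.47), and their sum spanned 11104 to 12659 CPM in acute and 6796 to 9880.3 in challenge mice, without overlap. The sum of 6 astrocyte markers was also lower without overlap, at 3244 to 3450.3 CPM in acute and 2523 to 2877 in challenge mice, although 1 of them passed as higher and 1 as lower. That of Pvalb, Gad1, Gad2 and Sst, genes of GABA neurons of which Gad1 and Gad2 are also expressed by striatal projection neurons, was at 1658 to 1951 and 1901 to 2107 CPM, with overlap, and Sst alone of the 4 was called, higher by 0.94 ± 0.051. No marker of the 3 lists was at 0. The part of these cell types in the lower Kcnj10 and in the other differences was not tested.

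**Figure D4:**
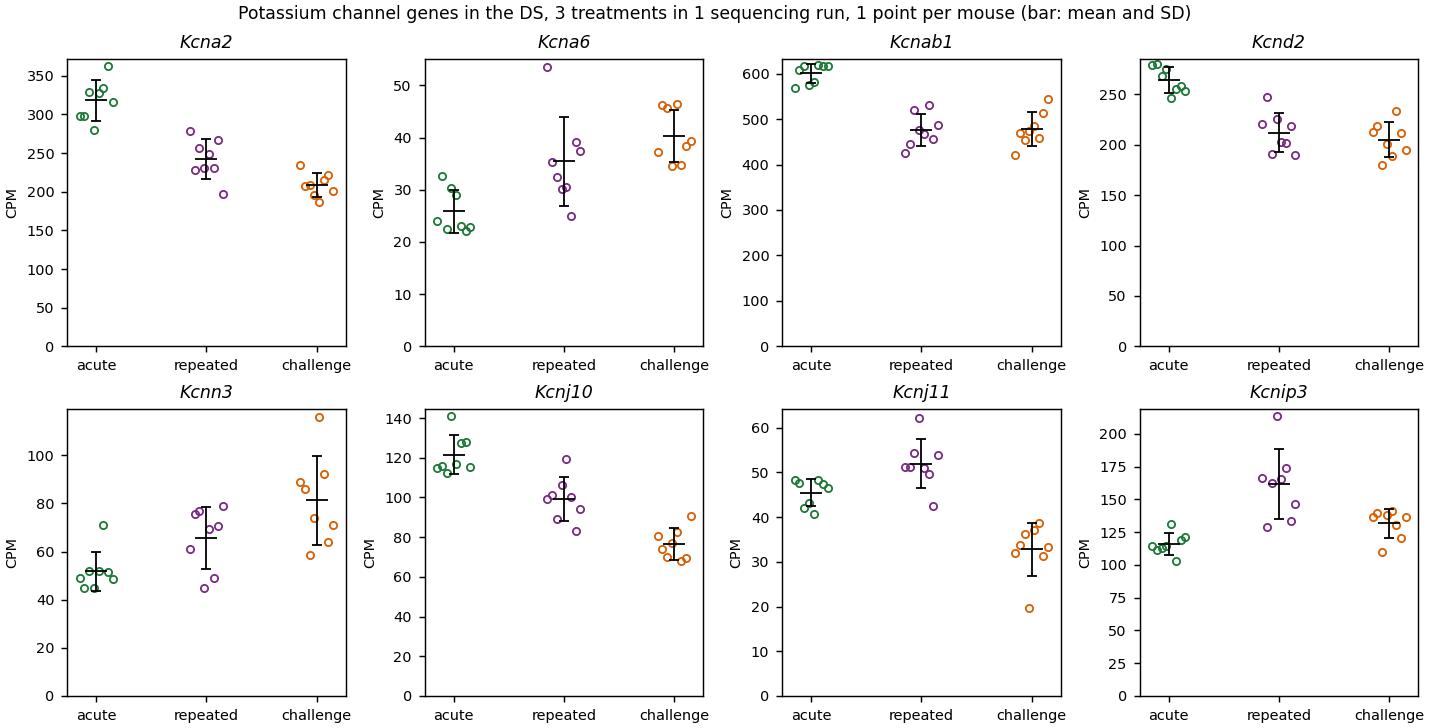
Level in CPM of 8 potassium channel genes in each DS mouse (points) of the run that held all 3 treatments, with the mean and SD (bars), 8 mice per treatment. Kcnab1 is lower after repeated and challenge than after acute cocaine without overlap, and Kcnj11 is lower after challenge than after either other treatment.

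The comparison of challenge with repeated cocaine is the one in which both sets of libraries hold the 2 treatments within a single run, and it could be repeated in further mice. The 6 genes lower after challenge were the pores Kcnh3, Kcnq3, Kcnt1, Kcnj10 and Kcnj11 and the calcium sensor Kcnip3. These calls were lost with the replicate number as a block. Kcnt1, a sodium-activated channel, spanned 139 to 179 (median 155) CPM in repeated and 107 to 142 (median 133) in challenge mice (-0.28 ± 0.079 (adjusted p = 0.0196)), which overlapped. Kcnq3, of the M-current, spanned 234 to 339 (median 279.9) and 206 to 262 (median 225) (-0.26 ± 0.070 (adjusted p = 0.0124)), and Kcnip3 129 to 214 (median 164) and 109.7 to 141 (median 137) (-0.28 ± 0.083 (adjusted p = 0.0324)). Kcnj11 was the only gene of the 6 whose groups did not overlap, at 42.4 to 62.1 (median 51.2) and 19.7 to 38.6 (median 33.5) CPM (-0.66 ± 0.13, where 0.294% of all genes did not overlap). The values of Kcnh3 and Kcnj10 were -0.37 ± 0.088 and -0.36 ± 0.093. In the other libraries of the same mice all 6 kept their sign and 4 were called, with -0.55 ± 0.054 for Kcnt1, -0.38 ± 0.048 for Kcnq3, -0.36 ± 0.065 for Kcnip3 and -0.38 ± 0.057 for Kcnh3 (11.8% of all genes were called), whereas Kcnj11 gave -0.11 ± 0.077 and Kcnj10 -0.26 ± 0.069.

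In other DS mice of that second run (9 repeated, 7 challenge), 12 of 58 channel genes were called, 8 lower and 4 higher after challenge (10.2% of all genes were called, 5.03% lower and 5.22% higher). Kcnt1 spanned 136 to 179.8 (median 151) CPM in repeated and 80.9 to 115 (median 101) in challenge mice, without overlap (-0.62 ± 0.065 (adjusted p = 5.51e-10), where 2.49% of all genes did not overlap). Kcnq3 (-0.34 ± 0.061), Kcnip3 (-0.30 ± 0.075) and Kcnj10 (-0.27 ± 0.064) were called lower here too, so that 4 of the 14 genes called in either set of mice were called in both, 12 had the same sign and 2 (Kcnab1 and Kcna5) opposite signs. Genes called in the other mice alone included the EAG-family Kcnh4, at 37.3 ± 5.37 CPM (n = 9) in repeated and 23.2 ± 3.73 (n = 7) in challenge mice (-0.70 ± 0.11), Kcna2 (-0.51 ± 0.059) and the beta subunit Kcnab2 (-0.26 ± 0.059), and, higher after challenge, Kcnn3 (0.50 ± 0.081), Kcnd3 (0.48 ± 0.11), Kcna6 (0.44 ± 0.093) and Kcna5 (0.32 ± 0.11). Kcnab1, lower here after challenge (-0.28 ± 0.048), was at 0.013 ± 0.049 (adjusted p = 0.929) in the first mice. The 2 sets had no mouse in common, although their challenge mice came from the same cohort. With the replicate number as a block, most calls in the other mice were lost as well. In each set, repeated and challenge mice had nearly separate replicate numbers, so that this block and the treatment can hardly be told apart. Oligodendrocyte markers were lower after challenge in both, 3 of 6 in the first and 6 of 6 in the other mice, where their sums spanned 8998 to 13739 CPM in repeated and 6729 to 7788 in challenge mice. Astrocyte sums were at 2856 to 3411 CPM in repeated and 2523 to 2877 in challenge mice of the first set and at 2304 to 2589 and 2233 to 2482 in the other. In the other mice, 3 of 10 markers of striatal projection neurons were lower after challenge and 1 higher, with sums of 13773 to 16512 CPM in repeated and 13301 to 14697 in challenge mice. Slc17a7, the only testable one of 5 markers of excitatory neurons of the cortex and amygdala, was higher there by 1.08 ± 0.20, with sums over the 5 of 6.52 to 29.4 and 17.7 to 77.1 CPM. The part of these cell types in the differences was not tested. The number of called genes in the first mice was 2, 3 and 2 without replicate number 1, 3 and 4, and in the other mice 6 without number 3.

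**Figure D5:**
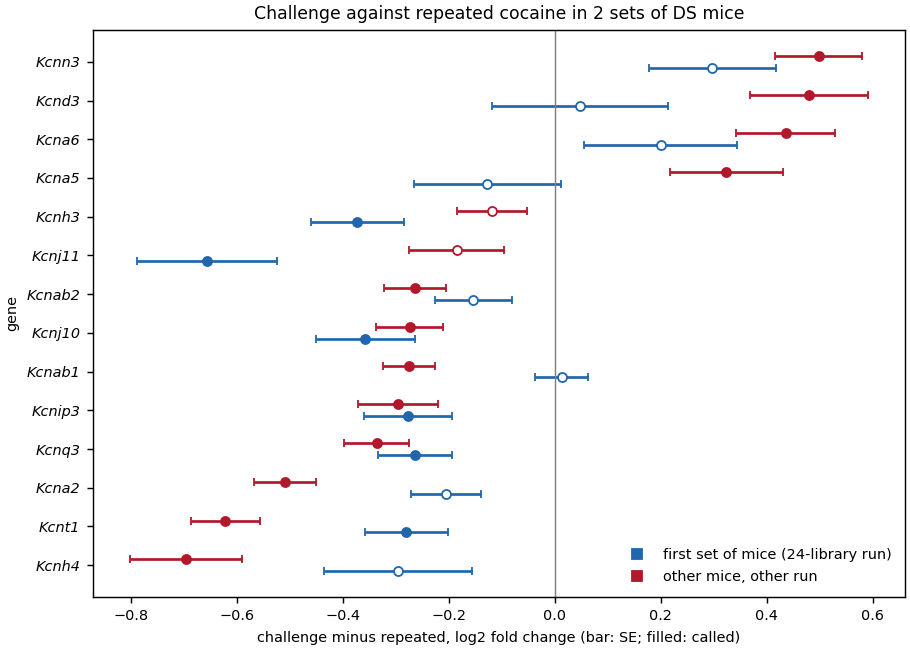
Challenge minus repeated cocaine in DS as log2 fold change with its SE (bars) for the 14 potassium channel genes called in either of 2 sets of mice, filled where called. Blue is the run that held all 3 treatments (8 and 8 mice) and red the other mice (9 and 7). Kcnt1, Kcnq3, Kcnip3 and Kcnj10 are filled and to the left of 0 in both sets.

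In the Amy, where acute and repeated mice shared a run (8 and 8 mice), 11 of 62 channel genes differed (9.29% of all genes), 6 higher and 5 lower after repeated cocaine (4.73% and 4.56%). Those lower were Kcna5 (-0.75 ± 0.14), Kcnj2 (-0.57 ± 0.15), Kcna4 (-0.50 ± 0.13), Kcnab1 (-0.41 ± 0.062) and Kcnq5 (-0.40 ± 0.10), of which 4 are among the 6 genes that were high in both striatal structures. Those higher included Kcna1 (0.72 ± 0.17), Kcng1 (0.61 ± 0.076), Kcna6 (0.52 ± 0.055), Kcnn1 (0.36 ± 0.11) and Kcnc4 (0.34 ± 0.063). Kcnab1 spanned 85.0 to 109 (median 92.4) CPM in acute and 57.4 to 77.0 (median 70.0) in repeated mice, and Kcng1 52.7 to 80.4 (median 66.4) and 80.9 to 121 (median 98.8). Neither overlapped, nor did Kcna6 at 86.5 to 112 (median 96.7) and 114 to 153 (median 133) (2.56% of all genes did not overlap).

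Markers of other cell types moved with the same groups in Amy. All 10 markers of striatal projection neurons were lower after repeated cocaine (median log2 difference -0.65), with sums of 1446 to 2069.8 CPM in acute and 913 to 1515 in repeated mice. Of 4 tested markers of excitatory neurons of the cortex and amygdala, 3 were higher, with sums of 588 to 848 and 957 to 1235 CPM over 5 markers, and no marker of either list was at 0. The part of the dissected tissue in the 11 differences was not tested.

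In the LH of the same 16 mice, 2 of 62 channel genes differed (4.84% of all genes). Kcnk3, the acid-sensitive leak channel, spanned 51.4 to 60.6 (median 57.0) CPM in acute and 62.6 to 71.7 (median 69.0) in repeated mice, without overlap (0.29 ± 0.060 (adjusted p = 0.00102), where 1.51% of all genes did not overlap). Kcnj2 spanned 6.73 to 12.2 (median 9.37) and 3.75 to 7.82 (median 6.68) CPM, which overlapped (-0.50 ± 0.17 (adjusted p = 0.0423)). Kcnk3 was thus higher by less than 1.5-fold, at 56.7 ± 3.39 and 68.5 ± 2.94 CPM (n = 8 each). Without replicate number 2 neither was called, and DESeq2 called Kcnk3 alone.

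Of the 12 tested partner proteins, 2 were higher and 1 lower in DS for repeated minus acute in the 1 run (8.01% and 6.25% of all genes), 3 and 1 for challenge minus acute (9.77% and 8.06%) and none for challenge minus repeated (4.05%). In the other DS mice, 1 was higher and 2 lower after challenge (5.22% and 5.03%). For repeated minus acute in Amy, Cntnap2 alone was called, lower by -0.30 ± 0.053 (9.29% of all genes were called). In LH, Dpp10 was called lower (-0.30 ± 0.060) and Vapb higher (0.35 ± 0.048), where 4.84% of all genes were called.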

How the data were processed

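3′ RNA-seq libraries of 5 brain structures were analysed from the table of raw counts per gene that the authors deposited. Per the study's methods and the processing notes of the submitters, reads sharing a molecular identifier were collapsed, poly(A) stretches trimmed, reads aligned with STAR to GRCm38 and counted with HTSeq, and samples under a depth minimum removed. The strand used in counting and the tool versions are not given in the sources used here. Collapsing makes each count close to 1 molecule, and 3′ counting makes levels comparable between samples but not between genes. Library depth ran from 1193306 to 10367769 counts, 197 of 19363 genes had no count, and no 2 libraries agreed within sampling noise (294 pairs within groups, lowest chi-square per degree of freedom 1.56).

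Counts were tested with edgeR 4.0.16 (R 4.3.3; TMM scaling, filterByExpr, quasi-likelihood F test), with Benjamini-Hochberg adjustment over all genes tested. Structures were compared over groups of structure, treatment and time (adjusted p under 0.05, fold over 2), time courses over the groups of each structure, and treatments within 1 sequencing run with time as a term (fold over 1.2). Log2 values are given ± SE and levels ± SD over mice. The alternatives were DESeq2 1.42.0, RLE scaling, no filter, a replicate block, other fold limits, summed libraries, run and cohort terms and leaving out each replicate number. The comparison of treatment effects between structures, the other libraries of the same mice, the animal block, the 3-treatment run's DS libraries in the comparison of structures and the omission of naive DS replicates 1 and 2 were added after seeing the data. On simulated counts for the acute DS time course (12766 genes), 23.9% of genes changed 1.25-fold, 56.7% at 1.5-fold and 84.8% at 2-fold were recovered. The simulated counts held no spread particular to a gene, run or library, so that recovery in the real counts can be lower.

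The channel genes, their classes, and the partner and marker lists were chosen with earlier results of these data known. Named by rule were, per class, the gene of the highest mean CPM and up to 3 of the largest ratio between structures, every gene called over time or in the interaction, and up to 10 called genes per direction in each treatment comparison; other names were chosen after their values were seen. Of the 64 genes, 3 were included in every fit, sum and count but are not reported here by name. All 64 symbols were matched to GENCODE M21 (GRCm38), and 44 to RefSeq promoter windows (GRCm38.p6).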

Additional observations from a re-analysis of the deposited data

Results flagged for a closer look

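A single mouse lay far from the rest of its group in 9 of 111 groups tested (Dixon's test), where chance gives about 5.55. In the time courses these were Kcnn3 at 102 CPM in 1 DS mouse 2 hr after challenge, Kcnn3 at 94.1 CPM 2 hr after repeated cocaine and Kcnj2 at 74.3 CPM 4 hr after repeated cocaine. Their nearest neighbours were at 79.8, 66.8 and 61.8 CPM. In the run that held all 3 treatments, the lowest Kcnj11 level after challenge (19.7 CPM), the highest Kcnj8 level after challenge (9.97 CPM) and the highest Kcnn3 level after acute cocaine (71.0 CPM) stood apart. So did the highest levels of Kcna6 (39.5 CPM) and Kcnd3 (32.5 CPM) in the other DS mice after repeated cocaine, and of Kcna6 in the Amy after acute cocaine (112 CPM).

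The difference between repeated and acute cocaine was itself compared between structures, a test added after seeing the data. The log2 difference in the DS minus that in the Amy passed for 9 channel genes (8.9% of all genes did), among them at 1.07 for Kcna5, 0.66 for Kcnj2, 0.49 for Kcnn3, -0.29 for Kcnc1, -0.38 for Kcnma1, -0.68 for Kcng1, -0.90 for Kcnc4 and -0.90 for Kcna1. For DS minus LH it passed for 7 (8.45%), at 0.58 for Kcnj2, 0.54 for Kcnn2, 0.52 for Kcnn3, 0.44 for Kcnip3, -0.30 for Kcna2, -0.30 for Kcnc1 and -0.76 for Kcnc4. For Amy minus LH, which shared a run, it passed for 3 (0.562%), at 0.90 for Kcng1, 0.57 for Kcnh3 and -0.97 for Kcna5. With the animal as a block, 0 genes passed for DS minus Amy and 0 for DS minus LH, and 3 for Amy minus LH. DS and Amy or LH libraries were never in 1 run, and the DS values of Kcna2 and Kcnip3 changed sign between the 2 libraries of the same mice.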

How the results depend on the processing

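Counts of channel genes called between structures stayed within 1.5 times their values under RLE scaling, no filter, DESeq2, the replicate block, the animal block, the 3-treatment run's libraries of 24 DS mice (the last 2 chosen after seeing the data) and leaving out each replicate number. With a fold limit of 1.5 they were 21 for LCtx and Amy, 40 for LCtx and LH, 27 for NAc and DS, 33 for NAc and Amy, 45 for NAc and LH and 35 for Amy and LH. Over time, no filter gave 4 in NAc, 4 in DS, 1 in Amy and 1 in LH. The 2 DS calls became 0 in DESeq2, 0 with the libraries of a mouse summed, 0 to 2 without single replicate numbers and 1 without naive replicate 2. The Amy count was 1 with run and cohort terms, and the LCtx count 0 to 5 without single numbers. The LH time course without replicate 1 or 2 could not be fitted.

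Replicate numbers showed little pairing of the samples at the median: deviations of same-numbered samples from their group means had a median correlation of 0.0127 over 221 pairs, against -0.00990 over 518 others. A larger share of the same-numbered pairs was over 0.1 (53, against 65 of the 518). With the replicate number as a block, the counts were 1 in DS and 1 in Amy time courses, 4 for DS repeated minus acute, 0 for DS challenge minus repeated, 1 at 0 hr, 1 in the other DS mice and 4 for the DS minus LH difference of treatment effects.

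For DS treatments, all DS libraries gave 21, 31 and 10 called genes for repeated minus acute, challenge minus acute and challenge minus repeated and 20 at 0 hr, and the other libraries of the same mice 28, 33 and, at 0 hr, 28; runs and treatments coincide there. Directions turned in all DS libraries and in the other libraries, respectively, for repeated minus acute in Kcna6 (-0.38, -0.60), Kcnd2 (0.031, 0.036) and Kcnip3 (-0.082, -0.22), for challenge minus acute in Kcna6 (-0.0051, -0.24) and Kcnq5 (0.14, 0.30), and in the other libraries alone for Kcna2, repeated minus acute (0.17). Kcnj2 at 4 hr after challenge ranged from -0.25 to 0.064 without single replicate numbers, and turned without replicate 2. Without single replicate numbers the counts were 4 to 8, 2 to 7 for challenge minus repeated, 0 to 2 at 0 hr, 6 to 11 in the other DS mice, 0 to 3 in LH, and 3 to 8, 0 to 7 and 0 to 3 for the differences of treatment effects (DS minus Amy, DS minus LH, Amy minus LH). At 0 hr no filter gave 4. In the LH, no filter and DESeq2 gave 1. Groups of 1 or 2 mice and the depth of the 3-treatment run limit the changes that could be detected.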
